A study of Mus musculus with 3 samples.

Results

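The genes that make, store and clear dopamine were described by their accessible chromatin in dopaminergic neurons (DNs) of the midbrain ventral tegmental area (VTA). There were 8 genes: *Th*, *Ddc*, *Gch1*, *Pts*, *Qdpr*, *Slc18a2*, *Slc6a3* and *Dbh*, out of 21755 protein-coding genes on chromosomes 1 to 19 and X. Every peak of the DN list that overlapped one of these gene bodies or lay within 50 kb of one was taken, which gave 70 of the 55326 peaks in the list. Of these, 44 overlapped a gene body and 26 lay in a flank. The list came from single-nucleus ATAC-seq, which cuts and tags open chromatin with a transposase, of frozen VTA from male C57Bl/6Nl wild-type mice aged 7 weeks in 1 library and 9 weeks in the other. Both libraries were pooled into 1 list of 500-bp peaks that holds positions only, without a height, read count or p-value. From this list, no spread between the 2 libraries can be given and no test was possible. Counts are set beside the same count over all protein-coding genes or over all peaks. The depth behind a peak is not in the list, so a stretch without a peak is one where no peak was listed, not one shown to be closed.

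Dopamine is made from tyrosine in sequential steps. Tyrosine hydroxylase (*Th*) makes L-DOPA and uses tetrahydrobiopterin as its cofactor, and aromatic L-amino acid decarboxylase (*Ddc*) turns L-DOPA into dopamine. Tetrahydrobiopterin is built from GTP by a pathway that starts with GTP cyclohydrolase 1 (*Gch1*) and continues with 6-pyruvoyltetrahydropterin synthase (*Pts*), and dihydropteridine reductase (*Qdpr*) recycles it after use. Dopamine is loaded into vesicles by the vesicular monoamine transporter VMAT2 (*Slc18a2*) and taken back from outside the cell by the dopamine transporter (*Slc6a3*). Dopamine beta-hydroxylase (*Dbh*) converts dopamine to noradrenaline and marks noradrenergic rather than dopaminergic neurons.

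In the study, DN nuclei were picked out by clustering and by accessibility over marker genes, *Th* first and *Slc6a3* among the others. Peaks at *Th* and *Slc6a3* are thus not independent of how the nuclei were chosen, and their values are descriptions only. Transcription factor genes of midbrain DNs were read as well, as a description and not as an independent check of the label. The study names *Lmx1b*, *Foxa1* and *Foxa2* as examples of the markers it used, so more of these genes may have been used. All 8 (*Lmx1a*, *Lmx1b*, *Foxa1*, *Foxa2*, *Nr4a2*, *Pitx3*, *En1* and *En2*) had a peak centre within 1 kb of an annotated start. Of all protein-coding genes, 56.4% had one. By the same measure the count was 0 of 5 oligodendrocyte markers, 0 of 4 astrocyte markers, 0 of 4 microglia markers and 0 of 3 endothelial markers. Peaks were listed inside some of these genes away from their starts, 9 in *Cx3cr1* (microglia), 5 in *Aldh1l1* (astrocytes), 2 each in *Flt1* and *Pecam1* (endothelium) and 1 in *Mag* (oligodendrocytes), and the other 11 had none in the body. Their part in the peaks described here was not tested. The share of starts with a peak differed with base composition, as given further on, and the lists were not matched for it. Markers of GABAergic or glutamatergic neurons were not searched.

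Of the 8 genes, 7 had a peak centre within 1 kb of a transcript start of the GENCODE M21 basic set, and *Dbh* did not. The share across protein-coding genes was the 56.4% given above. At the outermost start of each gene, 5 of the 8 had such a peak, against 53.4% of genes. All 8 had at least 1 peak overlapping the gene body, where the share across genes was 63.8%. For *Pts* and *Qdpr* this was the peak over the start alone, with its centre just upstream of the gene, so that 6 of the 8 genes had a peak centred inside the body. The share across genes was counted by overlap only, not by centre. The genes had a median of 2.5 peaks in the body and 7.5 in the body or within 50 kb, against 1 and 4 for the median protein-coding gene. The count with flanks depends on the neighbourhood, and its median was 8 for the oligodendrocyte and 8 for the microglia markers, at 0 in the body for both. By centre, with starts assigned first, 9 of the 70 peaks lay at starts, 36 in introns, 0 in exons away from starts, 8 upstream and 17 downstream. Only 43 of the 70 had a start of the gene itself as their nearest protein-coding start. The others were nearest to a start of another gene, and included intronic peaks of *Ddc* and *Slc6a3* as well as flank peaks.

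**Figure D1:**
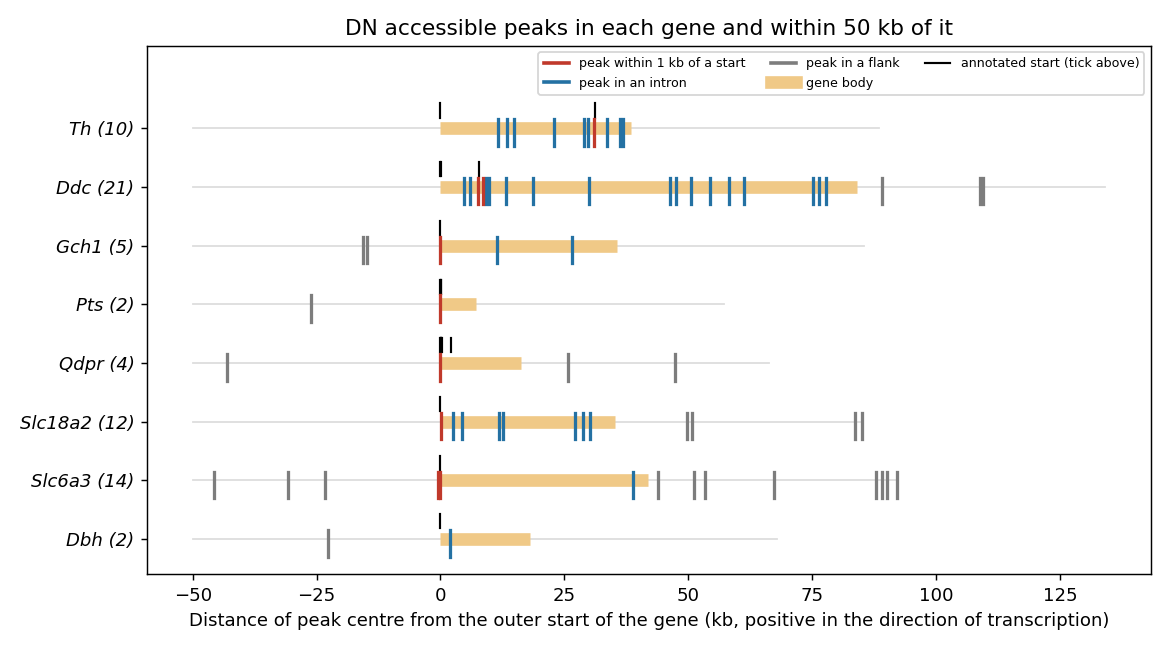
Peaks of the DN list in each gene and within 50 kb of it, drawn by the distance of the peak centre from the outermost annotated start in kb, with the number of peaks in brackets. *Th* (10 peaks), *Ddc* (21) and *Slc18a2* (12) held most of theirs in introns, *Slc6a3* (14) held 12 outside its body, and *Pts* (2) and *Qdpr* (4) held 1 each over the gene.

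The spread within the group was wide. The count in the body or within 50 kb was 21 for *Ddc*, 14 for *Slc6a3*, 12 for *Slc18a2*, 10 for *Th*, 5 for *Gch1*, 4 for *Qdpr*, and 2 each for *Pts* and *Dbh*. Per 100 kb of body plus flanks, *Ddc* had 11.4 peaks and *Slc6a3* 9.86, followed by *Slc18a2* with 8.88 and *Th* with 7.23. *Gch1* had 3.69, *Qdpr* 3.44, *Pts* 1.87 and *Dbh* 1.70, near or below the all-gene median of 3.10. The order changed when peaks nearest to another gene's start were left out. *Th* then had 7.23 peaks per 100 kb, *Ddc* 5.98 and *Slc18a2* 5.92, while *Slc6a3* fell to 2.82, below *Gch1* (3.69) and close to *Qdpr* (2.58), with *Pts* at 0.934 and *Dbh* at 0.848. With all peaks counted, in 12.2% of genes the density was as high as that of *Ddc*, and in 67.0% as high as that of *Dbh*. Counts inside the body set the genes apart further. In 0.896% of genes the body held as many peaks as *Ddc* (18), in 3.15% as many as *Th* (10) and in 4.78% as many as *Slc18a2* (8). Long genes hold more peaks, so the same was read among genes within a factor of 2 in length. There, 1.33% of 4586 genes held as many as *Ddc*, 2.06% of 6984 as many as *Th* and 3.58% of 7244 as many as *Slc18a2*. For *Slc6a3*, with 2 peaks in a body of 41.9 kb, 45.8% of 6767 such genes held as many. The share was 23.8% for *Gch1*, 50.2% for *Pts*, 65.5% for *Qdpr* and 67.3% for *Dbh*. Counts and length for the *Th* body rest on its outer annotated start, which had no peak within 1 kb. Most *Th* peaks lay upstream of its inner start, which had one.

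**Figure D2:**
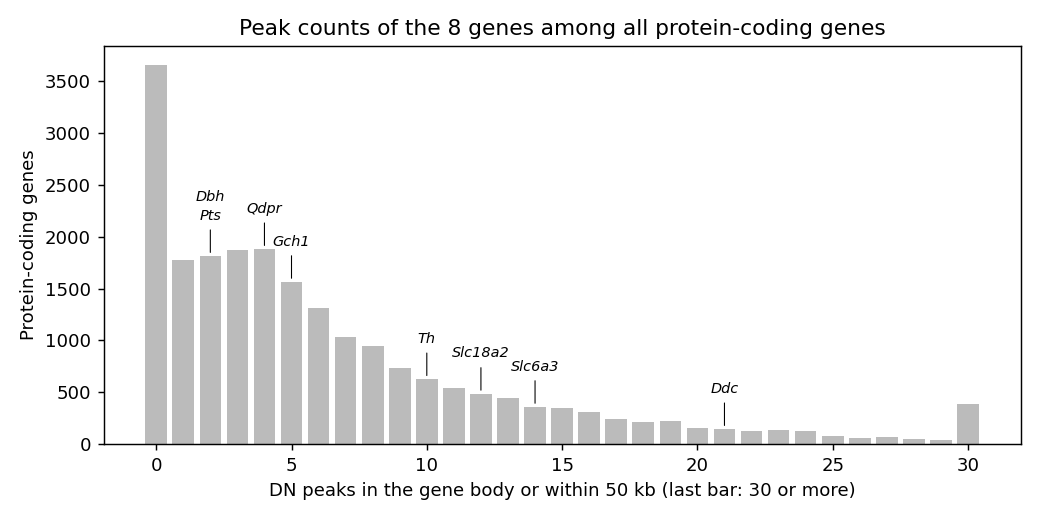
Number of protein-coding genes (y axis) by the count of DN peaks in the gene body or within 50 kb (x axis, last bar 30 or more). *Pts* and *Dbh* sit at 2 peaks, below the all-gene median of 4, while *Th* at 10, *Slc18a2* at 12, *Slc6a3* at 14 and *Ddc* at 21 lie above the upper quartile of 9.

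*Th* lies on the minus strand at chr7:142892752-142931128 (mm10) and has annotated starts 31114 bp apart. The inner one, of transcript Th-201, had a peak (chr7:142899847-142900346) whose centre was 82 bp upstream. The outer one, of Th-202, had its nearest peak centre 11702 bp away. A start peak at an inner start without one at the outermost start occurred in 3.45% of protein-coding genes, and *Th* and *Ddc* both had this arrangement. The other 9 *Th* peaks were intronic. Those at 2453, 5128 and 5664 bp downstream of the Th-201 start fell by centre in introns 2, 9 and 11 of that transcript. By overlap, those at 5128 and 5664 bp also covered 105 and 137 exon bases. The remaining 6 fell in intron 1 of Th-202, upstream of Th-201. Of these, 3 lay 1270, 2175 and 8125 bp upstream of the Th-201 start, and 3 lay farther out, at 11702, 13480 and 14846 bp from the Th-202 start. No peak fell in either 50-kb flank of *Th*, as in 22.6% of protein-coding genes. All peaks assigned to *Th* were thus inside the annotated gene body, but 6 lay upstream of the accessible Th-201 start. The body count and the empty flanks therefore rest on the outer start of Th-202, which had no peak within 1 kb.

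The sequence of the accessible *Th* start is shown because it carries several consensus words within a short stretch. It is the 250 bases of mm10 that end at the base before the Th-201 start, read 5′ to 3′ in the direction of the gene. Capitals mark, in order, a GC box (GGGCGG), an AP-1 word (TGANTCA) and a cAMP response element or CRE (TGACGTCA).
*Th*, chr7:142900015-142900264, strand minus: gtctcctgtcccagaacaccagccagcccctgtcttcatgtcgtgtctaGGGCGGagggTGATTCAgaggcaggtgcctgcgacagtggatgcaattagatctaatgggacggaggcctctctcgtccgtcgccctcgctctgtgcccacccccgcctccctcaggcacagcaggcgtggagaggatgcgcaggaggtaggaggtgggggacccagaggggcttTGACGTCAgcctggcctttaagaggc
The CRE, the word bound by CREB family factors, began 26 bp upstream of the start. The AP-1 word began 191 bp upstream and the GC box 201 bp upstream.

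*Ddc*, on the minus strand at chr11:11814101-11898144, was the longest of the genes (84.0 kb) and held the most peaks. Its start peak (chr11:11890230-11890729) was centred 71 bp upstream of the inner start of Ddc-202, and another start peak was centred 872 bp downstream of it. The outermost start, of Ddc-210, lay 7736 bp farther upstream, with that of Ddc-201 100 bp inside it. The nearest peak centre was 4790 bp from the former and 4690 bp from the latter. No peak lay in the 50 kb upstream of the outermost start. Around the inner start, 6 peaks formed a run of 5575 bp in which neighbours were at most 2 kb apart. Such runs of at least 6 peaks numbered 407 and held 5.51% of all peaks in the list. The remaining *Ddc* body peaks were spread over introns 1, 2, 4, 6, 7, 8, 11 and 12 of Ddc-202, up to 70011 bp from its start. Of these, 2 also overlapped the noncoding gene 1700042O10Rik. Toward the 3′ end of *Ddc*, 7 intronic peaks were nearer to the start of *Fignl1* than to any *Ddc* start. The 3 downstream peaks were also nearest to *Fignl1*, 1 of them 49 bp from its start.

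The stretch upstream of the accessible *Ddc* start is shown for comparison with *Th*, and holds no CRE, AP-1 word or GC box. Capitals mark a forkhead word, here in the reverse sense (GTAAATA), which began 80 bp upstream of the start.
*Ddc*, chr11:11890409-11890658, strand minus: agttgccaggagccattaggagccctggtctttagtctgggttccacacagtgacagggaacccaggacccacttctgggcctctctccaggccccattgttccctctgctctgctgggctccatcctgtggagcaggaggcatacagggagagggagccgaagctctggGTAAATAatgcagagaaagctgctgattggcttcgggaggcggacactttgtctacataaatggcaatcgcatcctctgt
A forkhead word (TGTTTAC or TATTTAC on either strand), the core bound by FOXA factors, was found in 4 of the 18 *Ddc* peaks in the body, and in 12.8% of all peaks. Another stood in the first intron, 2135 bp downstream of the Ddc-202 start. There, capitals mark the forkhead word (TGTTTAC), which was followed after 3 bases by a nuclear receptor half-site in the reverse sense (TGACCT).
*Ddc*, chr11:11888247-11888293: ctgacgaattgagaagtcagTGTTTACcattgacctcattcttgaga

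The cofactor genes held fewer peaks. *Gch1*, on the minus strand at chr14:47153895-47189413, had 1 start peak centred 55 bp upstream of its start. It also had 2 intronic peaks, at 11503 bp (intron 1) and 26513 bp (intron 3), and 2 upstream peaks at 14891 and 15538 bp. All 5 were nearest to *Gch1* itself. *Pts*, on the minus strand at chr9:50521617-50528724, had a start peak centred 8 bp upstream of its outermost start, and its only other peak in the window was 7 bp from the start of *Il18*. *Qdpr*, on the minus strand at chr5:45434021-45450236, had a start peak centred 58 bp upstream. Its further start, of Qdpr-202, lay 2063 bp inside the gene and had no peak centre within 1 kb. Of the 3 flank peaks of *Qdpr*, 1 was 56 bp from the start of *Lap3* and 2 lay downstream, 25798 and 47393 bp from the *Qdpr* start. Further genes that make, recycle or regulate the cofactor had body counts like those of *Pts* and *Qdpr*. *Spr* (sepiapterin reductase), *Pcbd1* (which recycles the used cofactor) and *Gchfr* (the feedback regulator of GTP cyclohydrolase 1) had 1 body peak each, which is also the median of all protein-coding genes, and all 3 had a start peak, as did 56.4% of protein-coding genes.

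The stretches upstream of the 3 cofactor starts are shown beside those of *Th* and *Ddc* because these starts differ in base composition over 500 bp around the start, as given further on. Capitals mark GC boxes. In *Qdpr* the capitals mark a GC box that overlaps a proneural E-box (CAGATGG), and in *Pts* no searched word fell in this stretch.
*Gch1*, chr14:47189414-47189663, strand minus: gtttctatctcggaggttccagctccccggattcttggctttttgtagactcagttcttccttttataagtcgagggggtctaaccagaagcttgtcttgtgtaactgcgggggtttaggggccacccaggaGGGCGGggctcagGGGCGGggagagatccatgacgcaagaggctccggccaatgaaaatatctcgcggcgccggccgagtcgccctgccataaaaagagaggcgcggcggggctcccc
*Pts*, chr9:50528725-50528974, strand minus: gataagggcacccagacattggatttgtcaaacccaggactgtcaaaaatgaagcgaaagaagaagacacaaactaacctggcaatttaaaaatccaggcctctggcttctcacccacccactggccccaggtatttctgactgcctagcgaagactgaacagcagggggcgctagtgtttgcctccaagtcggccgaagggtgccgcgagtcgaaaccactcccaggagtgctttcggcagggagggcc
*Qdpr*, chr5:45450237-45450486, strand minus: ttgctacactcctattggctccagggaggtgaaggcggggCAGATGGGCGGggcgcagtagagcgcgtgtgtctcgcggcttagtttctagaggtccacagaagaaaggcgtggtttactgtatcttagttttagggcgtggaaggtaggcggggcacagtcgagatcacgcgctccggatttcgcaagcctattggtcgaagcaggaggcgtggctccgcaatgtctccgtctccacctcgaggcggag

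*Slc18a2*, on the plus strand at chr19:59260896-59296012, had a start peak centred 6 bp downstream of its start. It had 7 intronic peaks in 3 places. Those at 2460, 4419 and 11822 bp lay in intron 3, the one at 12519 bp lay in intron 5, and those at 27223, 28854 and 30215 bp lay in intron 15, the last of the gene. By overlap, 3 of the 7 covered exon bases too, at most 185 of their 500 bp. No peak lay in the 50 kb upstream. The 4 downstream peaks were in or at *Pdzd8*, 1 of them 65 bp from its start.

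The *Slc18a2* start is shown because it held the same CRE word as *Th* in nearly the same place. Capitals mark GC boxes in both senses and the CRE (TGACGTCA), which began 22 bp upstream of the start, against 26 bp in *Th*.
*Slc18a2*, chr19:59260653-59260895, strand plus: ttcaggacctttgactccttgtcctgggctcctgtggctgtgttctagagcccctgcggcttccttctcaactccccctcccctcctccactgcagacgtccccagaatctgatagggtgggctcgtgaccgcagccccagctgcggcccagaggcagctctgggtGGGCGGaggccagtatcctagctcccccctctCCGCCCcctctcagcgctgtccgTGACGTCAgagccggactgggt
Of the 9 start peaks, 2 held the CRE, those of *Th* and *Slc18a2*, where 3.09% of the 16677 peaks within 1 kb of a protein-coding start did. None of the 36 intronic peaks held it, where 0.828% of all peaks farther than 1 kb from a start did. With 9 peaks, this is a description of these starts and no measure of the group. In the flanks, the word also stood in the peaks at the starts of *Pdzd8* and *Clptm1l*.

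*Slc6a3*, on the plus strand at chr13:73536747-73578672, held most of its peaks outside its body, where *Slc18a2* held most of its peaks inside. Its start had a pair of peaks, centred 539 and 20 bp upstream and 19 bp apart from edge to edge. The body held only 1 further peak, 38908 bp downstream in intron 14, the last of the gene. Between this and the start lay 38428 bp without a peak, where the widest gap between neighbouring peaks in the body was 7643 bp in *Th*, 15822 bp in *Ddc*, 14510 bp in *Gch1* and 14204 bp in *Slc18a2*. *Pts*, *Qdpr* and *Dbh* had 1 body peak each and so no such gap. The *Th* gap lay upstream of the accessible Th-201 start. The other 11 peaks lay in the flanks. Upstream, 3 fell in *Lpcat1*. Downstream, 8 were found, 1 of them 2014 bp past the end of *Slc6a3*, 1 at the start of *Clptm1l* (24 bp) and 4 near the start of *Tert* (152 to 2245 bp). Only 4 of the 14 peaks were nearest to the *Slc6a3* start.

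The *Slc6a3* start is shown beside that of *Slc18a2*, and held 3 GC boxes (capitals) and no CRE.
*Slc6a3*, chr13:73536497-73536746, strand plus: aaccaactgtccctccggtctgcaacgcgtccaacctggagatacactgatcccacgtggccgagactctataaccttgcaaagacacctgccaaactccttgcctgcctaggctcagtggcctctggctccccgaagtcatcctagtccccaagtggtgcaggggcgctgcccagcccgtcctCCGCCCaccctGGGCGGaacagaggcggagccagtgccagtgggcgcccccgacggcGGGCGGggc
Among genes that break dopamine down, *Maoa* (monoamine oxidase A), *Aldh1a1* and *Aldh2* (aldehyde dehydrogenases) had a start peak, which made 3 of the 4 reported here, against the 56.4% of all protein-coding genes. *Aldh2* had 6 body peaks, *Aldh1a1* 3 and *Maoa* 1. *Maob* (monoamine oxidase B) had 0 peaks in its body of 108 kb or within 50 kb of it, as had 16.8% of protein-coding genes.

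*Dbh*, on the plus strand at chr2:27165233-27183200, was the only one of the 8 without a start peak. Its single body peak (chr2:27166908-27167407) was centred 1924 bp downstream of the start, in intron 1. A body peak without a start peak was seen in 8.20% of protein-coding genes. The other peak in its window was 58 bp from the start of *Fam163b*. With the limit at 2 kb instead of 1 kb, the intronic peak counted as a start peak and all 8 genes had one. The share of all protein-coding genes was not counted at 2 kb. Markers of noradrenergic neurons gave 0 of 2 with a start peak and 0 of 2 with a body peak (*Phox2a* and the noradrenaline transporter *Slc6a2*), where 56.4% and 63.8% of all protein-coding genes had one. Over the other genes of monoamine synthesis and transport, 2 of 8 had a start peak and 4 of 8 a body peak, against the same shares. These were *Tph2*, the neuronal tryptophan hydroxylase of serotonin synthesis, and *Slc18a1*, the vesicular transporter VMAT1. *Slc6a4*, the serotonin transporter, had no body peak, and of the 3 serotonergic markers searched *Tph2* alone had a start peak. The central 200 bases of the intronic *Dbh* peak are shown because it is the only peak in the gene. Capitals mark its AP-1 word (TGAGTCA), 1956 bp downstream of the start, the only searched word in that peak.
*Dbh*, chr2:27167058-27167257, strand plus: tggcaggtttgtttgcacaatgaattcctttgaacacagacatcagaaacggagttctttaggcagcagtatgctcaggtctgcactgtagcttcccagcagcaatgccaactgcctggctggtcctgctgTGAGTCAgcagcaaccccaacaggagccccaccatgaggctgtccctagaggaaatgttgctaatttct

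Base composition differed among the starts. The CpG observed over expected ratio compares the number of CpG dinucleotides with that given by the C and G content, and CpG island promoters score high. In 500 bp around the start, the ratio was 0.83 for *Gch1*, 0.92 to 0.93 for *Pts* and 0.79 to 0.99 for the 5 accessible *Qdpr* starts. It was 0.63 for *Slc6a3* and 0.54 for *Slc18a2*. The accessible starts of *Th* (0.40) and *Ddc* (0.22) fell below these, and their outer starts without a peak had 0.26 (Th-202), 0.36 (Ddc-201) and 0.26 (Ddc-210). *Dbh* was lowest at 0.20. At a ratio below 0.5, 16.5% of 17924 protein-coding starts had a peak within 1 kb, against 85.5% of 23325 at or above it. The limit of 0.5 was set after these values were seen, and *Slc18a2* lay just above it. By this limit, the accessible *Th* and *Ddc* starts belonged to the class that mostly lacked a peak, and the unmarked starts of *Th*, *Ddc*, *Dbh* and Qdpr-202 (0.37) belonged to the same class. The starts of *Gch1*, *Pts*, *Qdpr*, *Slc6a3* and *Slc18a2* belonged to the class that mostly had one.

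**Figure D3:**
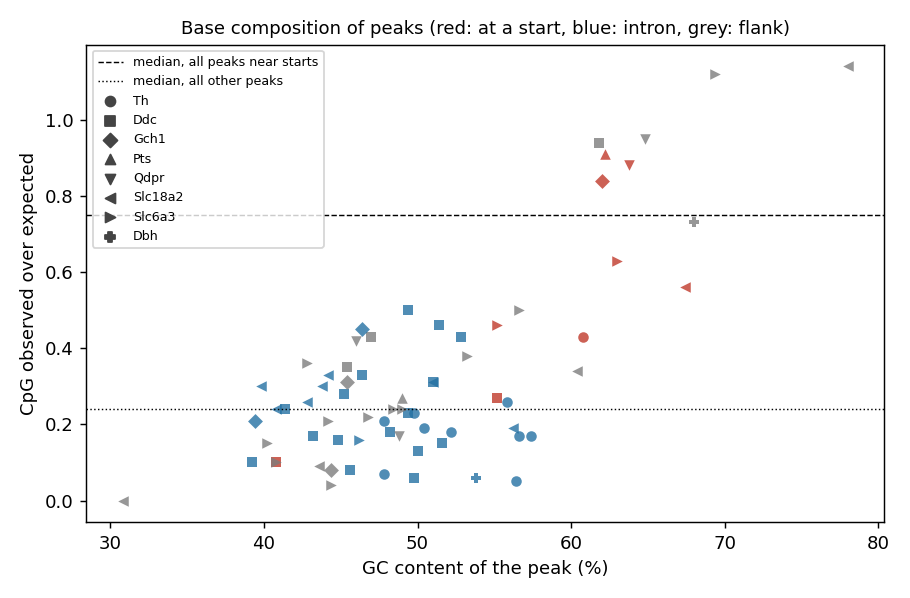
GC content in % (x axis) and CpG observed over expected (y axis) of each of the 70 peaks, with the marker shape giving the gene and the colour the position, and lines at the medians of all peaks near starts (0.75) and all others (0.24). Start peaks of *Gch1*, *Pts* and *Qdpr* lie above the upper line, those of *Th*, *Ddc*, *Slc18a2* and *Slc6a3* below it.

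Over whole peaks, the 36 intronic peaks had a median GC content of 48.8% and a median CpG ratio of 0.21, near the 49.4% and 0.24 of all peaks farther than 1 kb from a start. The start peaks had a median ratio of 0.56 against 0.75 for all start peaks. *Ddc* (0.27 and 0.10), *Th* (0.43), *Slc6a3* (0.46 and 0.63) and *Slc18a2* (0.56) lay below the latter, while *Qdpr* (0.88), *Pts* (0.91) and *Gch1* (0.84) lay above it. Repeat-masked bases made up 8.28% of the 70 peaks on average and 11.1% of all peaks.

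Consensus words of factors known in DNs were searched on both strands in the 45 peaks that overlapped a gene body or lay at a start. A match is a run of letters and not a shown binding site. The nuclear receptor half-site (AGGTCA) was in 17 of 45 peaks (37.8%, 95% exact Clopper-Pearson interval 23.8 to 53.5%), against 26.6% of all peaks. The forkhead word was in 9 (20.0%, 9.58 to 34.6%), against 12.8%. The LIM homeodomain core (TAATTA) was in 6 (13.3%, 5.05 to 26.8%), against 7.27%. Over whole peaks, the share in the list lay inside the interval for each of these words, so that no difference was detectable with 45 peaks. The intervals cover counting error only, and peaks of 1 gene are not independent.

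For the other words, too, the share over all whole peaks lay inside the interval. The proneural E-box (CAGATGG) was in 6 peaks (13.3%), against 11.5% of all peaks, and the bicoid core (GGATTA), bound by PITX factors, in 5 (11.1%), against 13.6%. The AP-1 word was in 5 (11.1%), against 12.3%, and the CRE in 2 (4.44%), against 1.51%. The GC box was in 10 (22.2%), against 32.3%. The 45 peaks and the list differ in their share of start peaks. Among peaks away from starts, the GC box was in 11.1% of 36 (3.11 to 26.1%), against 15.9% of such peaks in the list. There, the half-site was in 38.9% (23.1 to 56.5%), against 30.0%, and the LIM homeodomain core in 16.7% (6.37 to 32.8%), against 8.94%. By gene, forkhead words were in 4 *Ddc* peaks, 2 *Th* peaks, 2 *Slc18a2* peaks and 1 *Gch1* peak, and in none of the 3 *Slc6a3* peaks. LIM homeodomain cores were in 2 peaks each of *Gch1* and *Slc18a2*, 1 each of *Ddc* and *Slc6a3*, and none of the 10 *Th* peaks. Bicoid cores were in 2 *Th* peaks, 2 *Ddc* peaks and 1 *Gch1* peak, and the *Th* start peak held 1 of them, 303 bp upstream of the start.

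In the central 200 bp of each peak, the forkhead word was in 7 of the 45 peaks (15.6%, 6.49 to 29.5%), 4 of *Ddc*, 2 of *Slc18a2* and 1 of *Th*, against 6.12% of all peaks, just below the interval. Among peaks away from starts it was in 6 of 36 (16.7%, 6.37 to 32.8%), and the matching share of the list, 7.84%, lay inside the interval. The interval treats peaks as independent, and forkhead was 1 of 9 words searched in this way, with no adjustment for their number. The half-site turned in direction, with 4 of 45 central stretches (8.89%, 2.48 to 21.2%) against 11.5% of all peaks. The E-box turned too, with 2 (4.44%) against 5.32%, and the LIM homeodomain core was in 2 (4.44%), against 1.87%. For these 3 words the share over all peaks lay inside the interval.

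**Figure D4:**
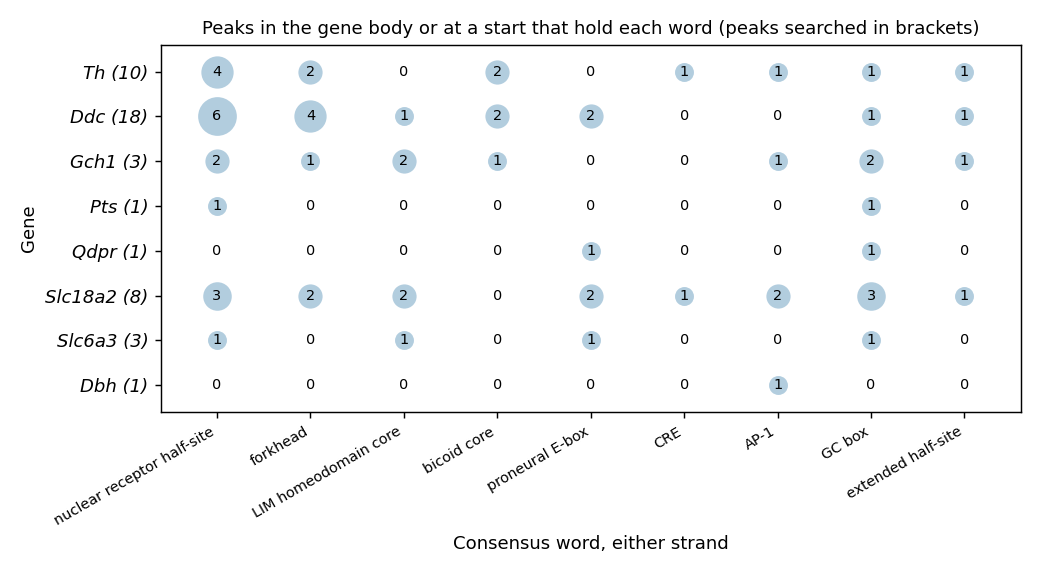
Number of peaks holding each consensus word (x axis) in each gene (y axis), over the 45 peaks in a gene body or at a start, with circle area growing with the count and the peaks searched in brackets. The half-site was the most spread of the DN factor words, from 6 of 18 *Ddc* peaks and 4 of 10 *Th* peaks to 0 in *Qdpr* and *Dbh*.

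The half-site is short, so its extended form (AAAGGTCA), to which the DN factor NR4A2 binds as a monomer, was searched as well, chosen after the other counts had been seen. It was in 4 of the 45 peaks (8.89%, 2.48 to 21.2%), against 4.00% of all peaks. The 4 peaks were 1 each in introns of *Th*, *Ddc*, *Gch1* and *Slc18a2*. They are shown with 20 bases on each side in the direction of the gene, with the word or its reverse (TGACCTTT) in capitals.
*Th*, chr7:142917483-142917530: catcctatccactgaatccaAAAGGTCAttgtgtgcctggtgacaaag
*Ddc*, chr11:11851570-11851617: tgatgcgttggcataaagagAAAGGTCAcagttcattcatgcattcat
*Gch1*, chr14:47162900-47162947: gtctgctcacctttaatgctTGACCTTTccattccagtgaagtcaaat
*Slc18a2*, chr19:59272698-59272745: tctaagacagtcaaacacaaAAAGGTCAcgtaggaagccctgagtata
The *Slc18a2* word stood 11822 bp downstream of the start, at the centre of its peak. The *Th* word stood in the first intron of Th-202, 13618 bp from that start. The *Ddc* word stood 38811 bp and the *Gch1* word 26486 bp from their starts. Outside the 45, a peak 9221 bp past the end of *Slc6a3* held the extended word in both senses, together with a forkhead word, and was nearest to *Clptm1l*.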

How the data were processed

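The data were single-nucleus ATAC-seq libraries of VTA tissue, 2 in number. According to the study's methods, the authors mapped reads to mm10 with Cell Ranger ATAC, removed doublets and poor nuclei and clustered the rest in ArchR, chose the DN cluster by accessibility at marker genes, and merged overlapping peaks of pseudobulk replicates. The submitters' processing notes also name Bowtie, which the study's methods give for the embryonic stem cell library. The deposited list holds peak positions (chromosome, start, end; other, with no score) for both libraries pooled. Whether a further filter by share of nuclei was applied to it is not given in the sources used here. The embryonic stem cell library was not analysed here.

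Starts were read as counted from 0 and are printed counted from 1. GENCODE M21 gene bodies and basic-set starts were used, a peak was assigned by an overlap of at least 1 bp or, at starts, by a centre within 1 kb, and sequences were read from GRCm38.p6 (mm10) as distributed by RefSeq. Counts were made in Python 3.11.15 with numpy 2.4.6 and scipy 1.17.1, and the counting was tested on simulated peaks. The genes named were the 8 members and the genes of the lists for cofactor, breakdown, other monoamine and cell type markers, of which 3 are not reported here and were left out of the counts. The members and lists were chosen with earlier results of these data known. Alternatives changed the distance to a start, the set of starts, the overlap, the flank and the part of the peak searched.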

Additional observations from a re-analysis of the deposited data

How the results depend on the processing

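Of 23 alternatives, 18 left their count within 1.5 times the reported one or their share inside its interval, and 5 did not. Of the 70 peaks, 43 remained when a peak counted for a gene only if its nearest protein-coding start was that gene's. In the central 200 bp of each peak, the share with the nuclear receptor half-site was 8.89% (all peaks 11.5%), with the LIM homeodomain core 4.44% (1.87%) and with the proneural E-box 4.44% (5.32%), where a shorter stretch holds fewer words by construction. Against all peaks, the half-site and the E-box thus went from higher to lower, while for the forkhead word (15.6%) the share of all peaks, 6.12%, fell below the interval of 6.49 to 29.5%. The extended half-site, added after seeing the data, gave 8.89%. Genes with a start peak numbered 5 at the outermost start only, against 53.4% of all protein-coding genes. Within 2 kb they numbered 8, where the share of all protein-coding genes was not counted. No paired analysis was possible because both libraries were pooled in the 1 list used here and no result came from a test, and no replicate could be left out of it. Other data of these libraries were not used here. Without heights or read counts, weak and strong peaks could not be told apart.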
